A study of Rattus norvegicus with 15 samples.

Results

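The mitochondrial respiratory chain was followed in rat aorta through 89 features of a table of 15739, chosen by gene name: every name starting with Nduf, Uqcr or Atp5, the genes Sdha to Sdhd, Cycs and Cyc1, and the cytochrome c oxidase subunits Cox4 to Cox8 without Cox8b. By role these were 7 core subunits, 31 accessory subunits and 4 assembly factors of complex I, 4 subunits of complex II, 8 of complex III, cytochrome c, 15 of complex IV and 16 of complex V. The other 3, Cox4nb (now Emc8), Atp5s (now Dmac2l) and Atp5sl (now Dmac2), fit the name pattern but are no subunits, and are counted as such. In RefSeq 69 of the names are current symbols and 20 are older synonyms, such as Atp5g1 for Atp5mc1. 87 are protein coding, while Atp5hl1 is a pseudogene and Cox6c1 a transcribed pseudogene. No feature was named Cox7a1, Cox7b2, Cox8c or Ndufa4l2, so these subunits or isoforms of restricted tissue expression were not analysed here.

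Sprague Dawley rat aortas were profiled on one-colour Agilent arrays, and each array carried RNA pooled from 2 rats of one group. The 5 groups had 3 arrays each: untreated sham rats of matched age, and rats uremic after 5/6 nephrectomy (NX) that were given vehicle or 1 of 3 compounds. The dose in µg/kg was 0.08 for paricalcitol, 0.04 for alfacalcidol and 0.01 for VS-105. The injections were intraperitoneal, 3 times a week for 12 days, and the compounds are vitamin D receptor agonists. The doses differed between compounds, so their values are set side by side and not tested against each other, and all NX comparisons of one kind share the vehicle or the sham arrays.

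Complexes I to IV pass electrons from NADH and succinate to oxygen, and complexes I, III and IV pump protons across the inner mitochondrial membrane. Complex V, the ATP synthase, uses the proton gradient to make ATP. Smooth muscle holds a moderate number of mitochondria, whereas brown adipocytes are packed with them and carry Ucp1, which lets protons return without ATP synthesis. Fat of the brown type surrounds the rodent thoracic aorta. Brown fat is known for a large respiratory chain beside little ATP synthase, and in rodents the low amount of the synthase there goes with low expression of Atp5g1, one of the genes for its membrane subunit c.

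The labelled tissue was checked first. Smooth muscle markers were high on all 15 arrays, with Myh11, the smooth muscle myosin, between 8.65 and 9.96 (log2 signal). Adipocyte transcripts were also present and varied widely: Adipoq, the adipocyte hormone adiponectin, lay between 4.75 and 7.84, and Ucp1 between 3.70 and 9.65. The mean of 9 intestinal epithelium markers reached 0.46 and 3.31 on arrays 2 and 3 of NX-vehicle, with all others from -3.55 to -1.0, and that of 14 skeletal muscle markers was 3.79 on NX-VS-105 array 1, against 0.38 to 1.42 elsewhere. Some results, among them group comparisons and slopes, are also given without some or all of these arrays.

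Most respiratory chain features varied together across the arrays: 79 of 89 had r above 0.5 with the mean of the others over the 15 arrays (median 0.932), and 6 had r below 0. The mean of all members (log2 signal over the 89 features) was 6.27, 6.62 and 6.28 on the sham arrays. On the NX-vehicle arrays it was 6.61, 5.94 and 5.85, the widest spread of the 5 groups. It was 6.71, 6.24 and 6.25 with paricalcitol, 6.55, 6.49 and 6.30 with alfacalcidol, and 6.56, 6.68 and 6.97 with VS-105. NX-vehicle array 1 was at the level of the highest sham array, while NX-vehicle arrays 2 and 3 were the lowest of all, so that the NX-vehicle arrays overlapped every other group. The group means ± SD (n = 3) were 6.39 ± 0.20 in sham, 6.14 ± 0.41 in NX-vehicle, 6.40 ± 0.27 with paricalcitol, 6.45 ± 0.13 with alfacalcidol and 6.74 ± 0.21 with VS-105. Feature by feature, 67 members had their highest value on NX-VS-105 array 3, and 86 had their lowest on an NX-vehicle array, 22 on array 2 and 58 on array 3. The median member spanned 1.07 over the 15 arrays, against 1.02 over all features, and 82 members lay above the median feature of every array.

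**Figure D1:**
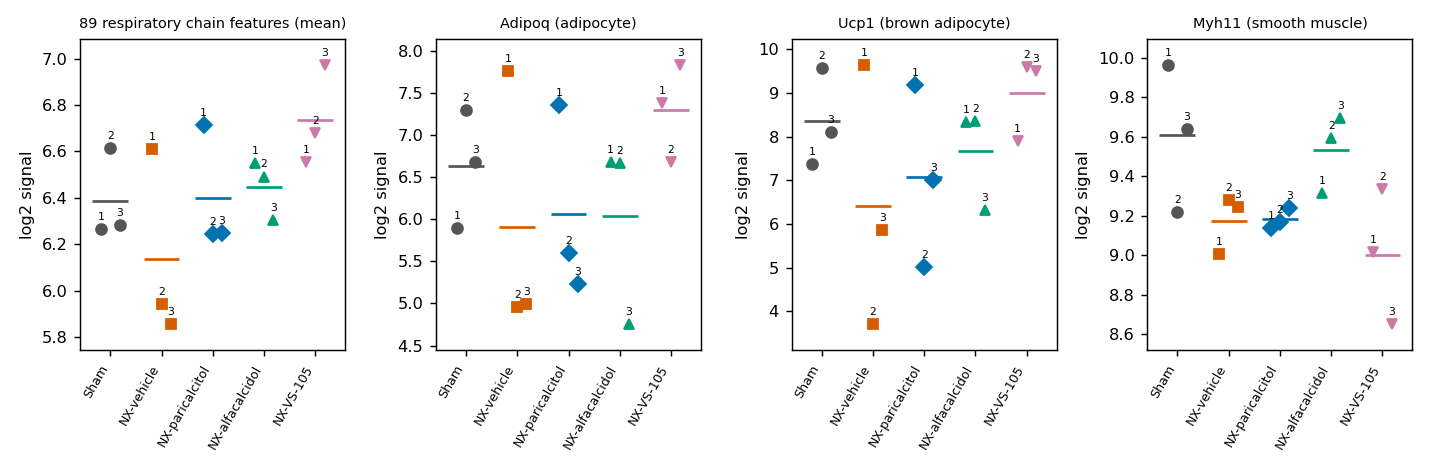
Log2 signal on each of the 15 arrays, by group, for the mean of the 89 respiratory chain features, Adipoq, Ucp1 and Myh11; points are arrays with their number, and bars are group means of 3 arrays. Array 1 of NX-vehicle and of NX-paricalcitol is high for the first 3 measures, and NX-vehicle arrays 2 and 3 have the lowest respiratory chain means.

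Adipoq followed the same arrays. It was 5.90, 7.30 and 6.69 on the sham arrays, 7.77, 4.96 and 4.99 on the NX-vehicle arrays and 7.36, 5.60 and 5.23 with paricalcitol. With alfacalcidol it was 6.68, 6.67 and 4.75, and with VS-105 it was 7.39, 6.68 and 7.84. In each of the 5 groups the array with the most Adipoq also had the highest respiratory chain mean. Over the 15 arrays Pearson's r between the mean and Adipoq was 0.861 and Spearman's rho 0.818. With each group's mean removed r was 0.902, and without the 2 arrays farthest from the median of Adipoq it was 0.881. For Cidea, a lipid droplet protein of brown adipocytes, r was 0.947, for Ucp1 0.860 and for Cox8b, the muscle and brown fat isoform left out of the rule, 0.868. Myh11 ran the other way, with r of -0.451, which became -0.196 without the 2 farthest arrays. Elovl3, another brown adipocyte marker, did not follow Adipoq across the groups. It was -0.40, 2.39 and 1.23 in sham and 0.80, 0.87 and 1.70 in NX-vehicle. With VS-105, the group with the highest Adipoq mean, it was -2.33, -2.31 and -2.72. The correlations describe 15 arrays of pooled aorta RNA and carry no p. The pools may differ in the tissue taken along with the aorta, and how the values were scaled is not given. In bulk aorta a smaller number of adipocytes and less RNA per adipocyte cannot be told apart.

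**Figure D2:**
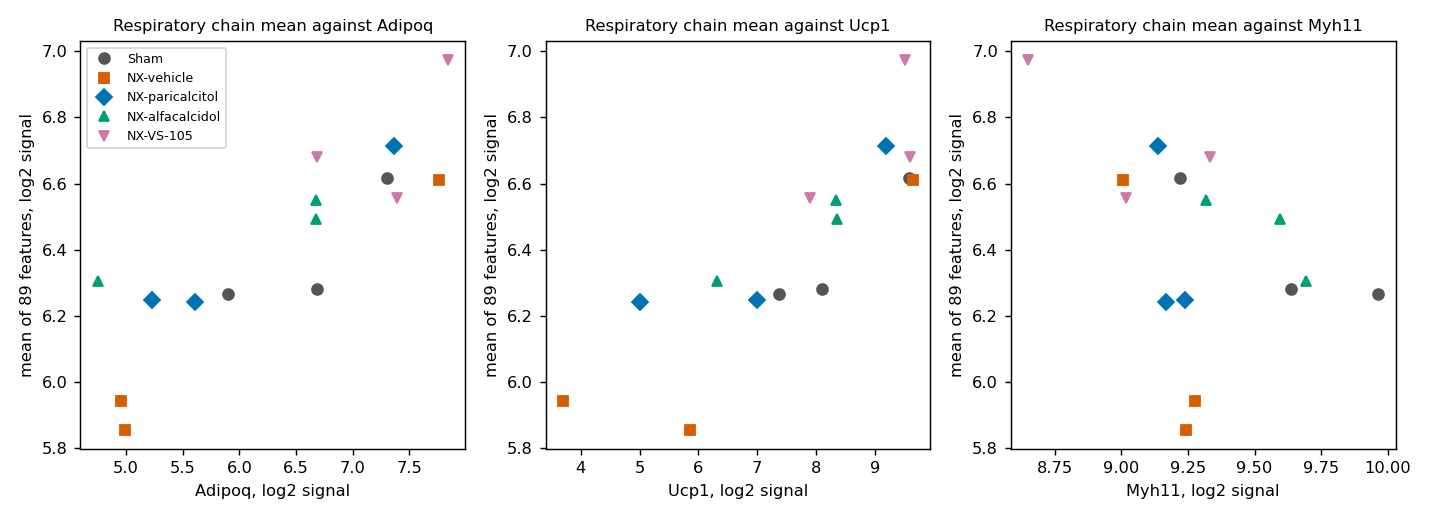
Mean log2 signal of the 89 respiratory chain features against the log2 signal of Adipoq, Ucp1 and Myh11, one point per array and one symbol per group. The mean rises with Adipoq (r = 0.861) and Ucp1 (r = 0.860), and runs against Myh11 (r = -0.451).

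Each feature was then fitted on Adipoq with limma, with the 5 group means in the same model, so that a slope is the change in a feature's log2 signal per unit of Adipoq (log2) among arrays of one group. The threshold, here and in all comparisons, was an adjusted p of 0.05 (Benjamini-Hochberg over all features). Of the 89 members, 61 passed with a positive slope and 2 with a negative one, while 7.33% of all features passed with a positive slope and 11% with a negative one. The median slope was 0.20 over the members and -0.055 over all features. Ucp1 in place of Adipoq gave 64 positive and 2 negative calls (6.45% and 13.8% of all features), and 60 members were called positive on both (98.4% of the Adipoq calls and 93.8% of the Ucp1 calls). The positive calls numbered 14 without NX-vehicle array 1, where 2.41% of all features passed so, and 31 without NX-paricalcitol array 1, where 3.99% did. The median slope was 0.174 and 0.196 in those fits. Without NX-vehicle array 3 and NX-VS-105 array 1, 64 members passed with a positive slope and 3 with a negative one (7.5% and 15% of all features).

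Cytochrome c and complex III had the highest median slopes of the complexes, 0.605 and 0.345. Cycs, the soluble electron carrier, read 6.42, 7.20 and 6.56 in sham, 7.46, 5.44 and 5.63 in NX-vehicle and 7.37, 5.86 and 6.05 with paricalcitol. It read 6.88, 6.69 and 6.05 with alfacalcidol and 6.61, 6.92 and 7.64 with VS-105. Array 1 of NX-vehicle and of NX-paricalcitol and array 3 of NX-VS-105 were the highest, and all groups overlapped. Its slope was 0.605 ± 0.078 (SE; limma, adjusted p = 0.000585). In complex III 7 of 8 features passed with a positive slope. Uqcrc1, a core protein, rose by 0.521 ± 0.069 per unit of Adipoq (limma, adjusted p = 0.00067), from 4.90 on NX-vehicle array 2 to 7.20 on NX-VS-105 array 3. The iron-sulfur protein Uqcrfs1 (0.484, adjusted p = 0.00179) and Cyc1, the cytochrome of the complex (0.479, adjusted p = 0.00116), were close to it, while Uqcrb, at 0.142, did not pass.

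In complex II, which takes electrons from succinate, 3 of 4 subunits passed. Sdhb, the iron-sulfur subunit, had the smallest p of all members, with a slope of 0.505 ± 0.061 (SE; limma, adjusted p = 0.000361). It read 6.18, 6.96 and 6.33 in sham and 7.25, 5.74 and 5.63 in NX-vehicle. With paricalcitol it read 7.17, 6.00 and 6.03, with alfacalcidol 6.76, 6.55 and 6.09, and with VS-105 6.99, 7.05 and 7.75. The 3 VS-105 arrays lay above every sham array, and NX-vehicle array 1 lay above 2 of the VS-105 arrays. The flavoprotein Sdha had a slope of 0.393 (adjusted p = 0.00167), and the membrane anchor Sdhc, at 0.058 (adjusted p = 0.377), did not pass.

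Of the 7 core subunits of complex I, which carry its redox centres, 5 passed with a positive slope, as did 22 of the 31 accessory subunits and 1 of the 4 assembly factors. Ndufv1, the subunit that binds NADH, had a slope of 0.452 (limma, adjusted p = 0.000824), and Ndufs1, with iron-sulfur clusters, 0.458 (adjusted p = 0.00701). Ndufv3, an accessory subunit, had 0.354 ± 0.048 (adjusted p = 0.000735). In complex IV, cytochrome c oxidase, 11 of 15 features passed, with Cox5a at 0.484 (adjusted p = 0.00126) and Cox4i1 at 0.292 (adjusted p = 0.00154). Cox7a2, a small subunit of complex IV, read 8.14 on sham array 2 against 7.47 and 7.43 on the other sham arrays, and had a slope of 0.330 (adjusted p = 0.00127). The largest p-values belonged to Cox6a2, Atp5sl and the assembly factor Ndufaf2, and 2 of these, Cox6a2 and Ndufaf2, had the widest errors, 0.369 and 0.271. Among the features that are no subunits, Atp5s had a slope of 0.463 ± 0.059 (adjusted p = 0.000516).

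**Figure D3:**
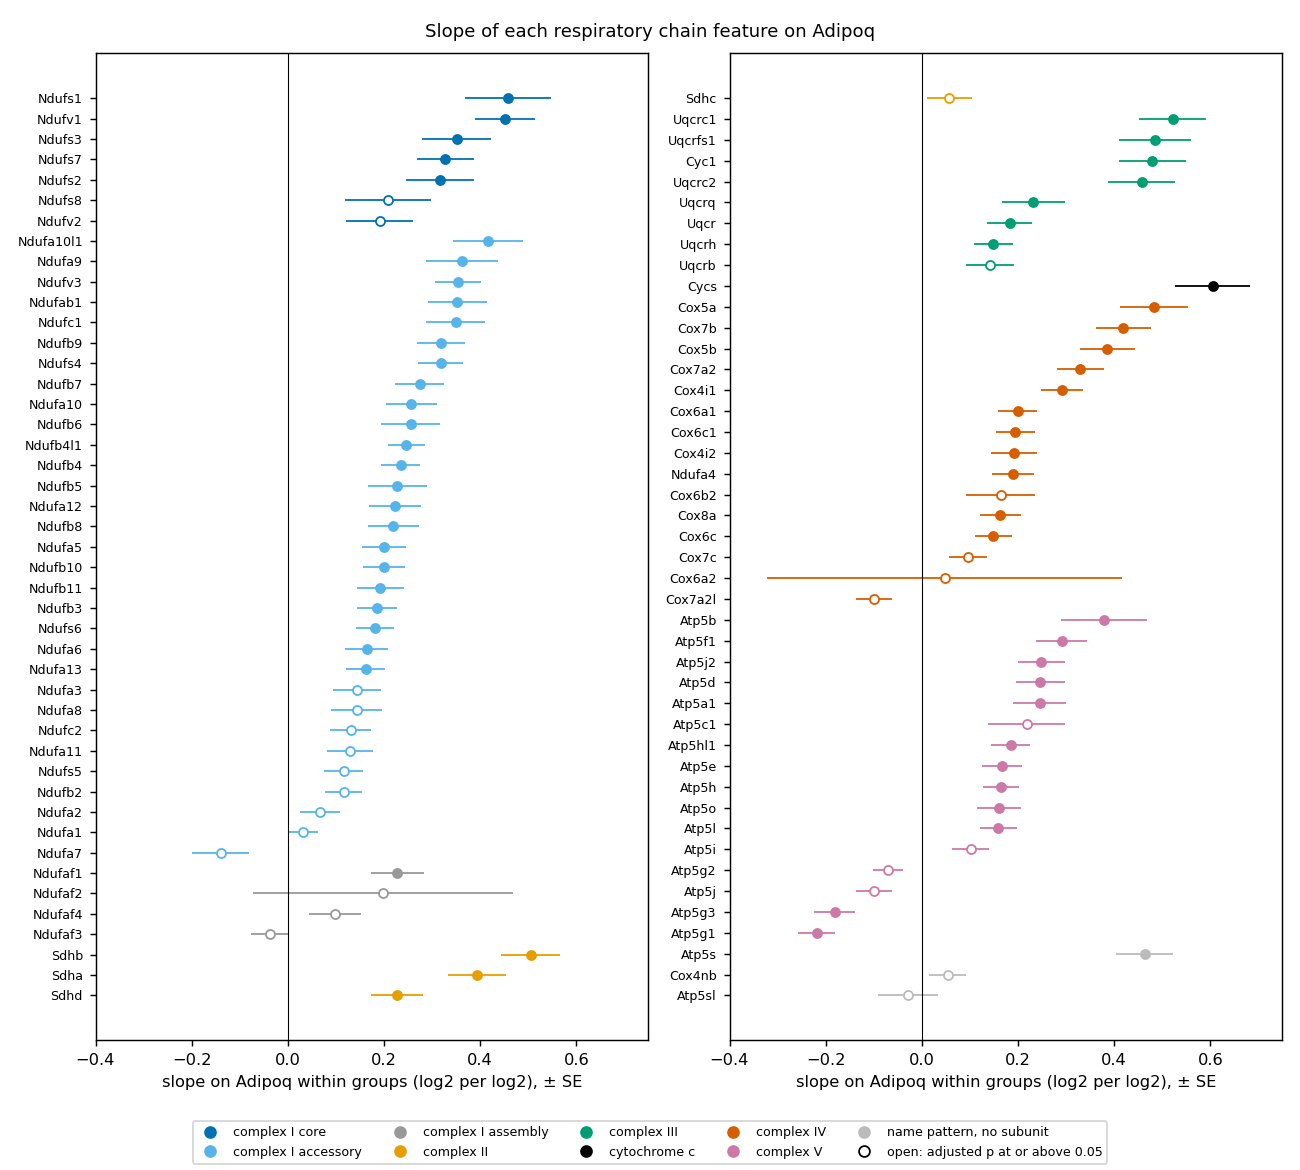
Slope of each of the 89 features on Adipoq within groups (log2 per log2, ± SE of the limma fit), ordered by complex and by slope; filled points passed at an adjusted p under 0.05. Cycs lies farthest to the right at 0.605, and the 3 subunit c genes of complex V (Atp5g1, Atp5g2, Atp5g3) lie below 0.

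Complex V was split. Of its 16 features 10 passed with a positive slope, among them the catalytic subunits Atp5b (0.380, limma adjusted p = 0.0162) and Atp5a1 (0.245, adjusted p = 0.0137). The 3 genes for the membrane subunit c, which encode an identical mature protein and form the rotor ring, all had slopes below 0. Such slopes were found in 8 of the 89 members, and in 10144 of 15738 features of the table. Atp5g1 read 7.45, 7.07 and 7.16 in sham, 6.60, 7.21 and 7.12 in NX-vehicle and 7.01, 7.55 and 7.51 with paricalcitol. It read 7.26, 7.37 and 7.54 with alfacalcidol and 6.89, 7.25 and 6.66 with VS-105. The arrays rich in Adipoq, NX-vehicle array 1 and NX-VS-105 array 3, were the lowest. Its slope was -0.219 ± 0.039 (SE; limma, adjusted p = 0.0044), and with each group's mean removed its r with Adipoq was -0.912. Without NX-vehicle array 1 the slope was -0.233 and the adjusted p 0.0531. Without NX-vehicle array 3 and NX-VS-105 array 1 the slope was -0.226 (adjusted p = 0.0115). Without NX-vehicle array 2 as well it was -0.232. That fit kept 1 NX-vehicle array, which adds nothing to a slope within groups.

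Atp5g3 had a slope of -0.182 ± 0.043 (limma, adjusted p = 0.0167), which became -0.174 with an adjusted p of 0.153 without NX-vehicle array 1. Its call was also lost with the replicate number as a block (adjusted p = 0.0568), without NX-paricalcitol array 1 (0.0666) and without the group means in the model (0.180). The call held without NX-vehicle array 3 and NX-VS-105 array 1 (slope -0.194, adjusted p = 0.0189). Without NX-vehicle array 2 as well the slope was -0.171, with 1 NX-vehicle array left. Atp5g2, at -0.071 (adjusted p = 0.115), did not pass. Under the other scalings both calls held, with slopes of -0.180 for Atp5g1 and -0.145 for Atp5g3 when each array's median was subtracted and after quantile normalization (-0.181 and -0.138). The other features with slopes below 0 were Atp5j, the coupling factor of complex V, at -0.100, Ndufa7 at -0.140, Cox7a2l at -0.100, Ndufaf3 at -0.037 and Atp5sl at -0.028, and none of these passed. Cox7a2l, which joins complexes III and IV in supercomplexes, moved against its relative Cox7a2, with r of -0.497 between them over 15 arrays and -0.806 with group means removed.

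**Figure D4:**
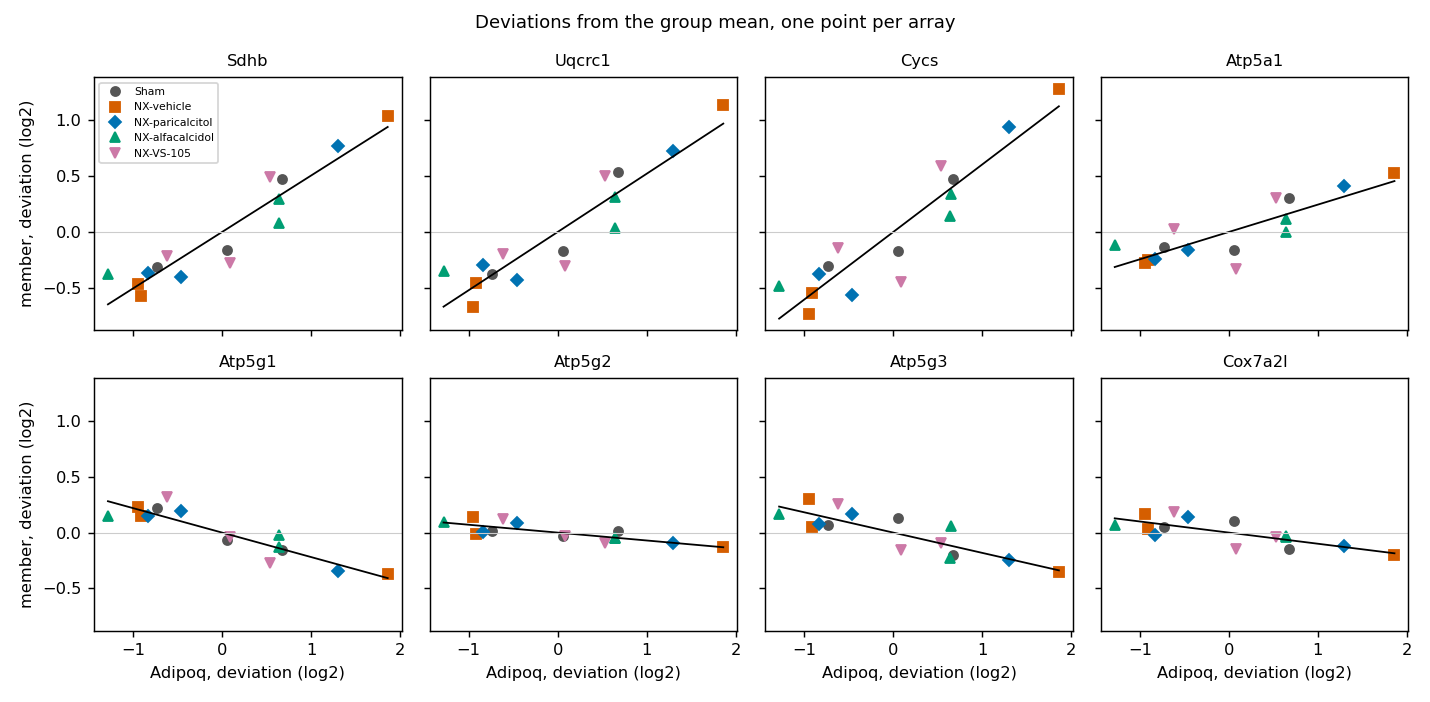
Deviation of each array from its group mean (log2) for 8 members against the same deviation of Adipoq, one point per array, with the fitted slope as a line. Sdhb, Uqcrc1, Cycs and Atp5a1 rise with Adipoq, and Atp5g1 and Atp5g3 fall, with slopes of -0.219 and -0.182.

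Promoter sequence was set beside these slopes for the pair of steep positive members and the pair that passed with negative slopes. RefSeq gives windows of 300 bases around the annotated start, on build GRCr8, for 75 members. They were searched on both strands for the letters of 4 motifs of factors known to act on respiratory genes: GCGCA and GCGC with any 1 base between them for NRF1, CCGGAAG for GABPA, AAGGTCA for the estrogen-related receptors, whose last letters are also a binding site of many other nuclear receptors, and AANATGGC for YY1. In the lines that follow, capitals mark these letters on either strand.
Sdhb, chr5:158547684-158547983, plus strand: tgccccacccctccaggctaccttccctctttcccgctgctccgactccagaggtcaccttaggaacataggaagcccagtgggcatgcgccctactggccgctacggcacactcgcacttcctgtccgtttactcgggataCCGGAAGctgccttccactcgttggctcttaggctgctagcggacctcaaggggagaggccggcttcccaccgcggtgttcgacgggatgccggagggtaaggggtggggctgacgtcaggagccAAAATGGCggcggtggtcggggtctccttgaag
Uqcrc1, chr8:118467973-118468272, plus strand: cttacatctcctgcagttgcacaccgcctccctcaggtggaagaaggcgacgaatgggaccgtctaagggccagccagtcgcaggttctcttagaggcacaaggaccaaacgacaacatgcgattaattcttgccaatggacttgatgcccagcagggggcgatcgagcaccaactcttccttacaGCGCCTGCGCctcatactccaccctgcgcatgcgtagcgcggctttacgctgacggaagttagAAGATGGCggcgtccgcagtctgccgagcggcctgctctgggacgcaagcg
Atp5g1, chr10:81523296-81523595, minus strand: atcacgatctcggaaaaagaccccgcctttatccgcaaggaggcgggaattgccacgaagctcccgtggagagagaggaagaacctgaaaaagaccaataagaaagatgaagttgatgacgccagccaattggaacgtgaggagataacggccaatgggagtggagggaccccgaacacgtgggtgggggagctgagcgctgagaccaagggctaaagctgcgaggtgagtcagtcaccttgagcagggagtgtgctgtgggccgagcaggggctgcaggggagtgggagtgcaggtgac
Atp5g3, chr3:79220615-79220914, minus strand: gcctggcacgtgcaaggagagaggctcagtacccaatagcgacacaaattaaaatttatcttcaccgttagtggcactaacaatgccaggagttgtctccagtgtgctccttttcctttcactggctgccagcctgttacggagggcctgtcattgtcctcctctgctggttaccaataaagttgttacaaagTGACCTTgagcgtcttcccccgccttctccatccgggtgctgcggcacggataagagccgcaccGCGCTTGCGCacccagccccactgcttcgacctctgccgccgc
The Sdhb window holds the GABPA and YY1 letters and that of Uqcrc1 the NRF1 and YY1 letters. The Atp5g3 window holds the NRF1 and estrogen-related receptor letters, and in that of Atp5g1 none of the 4 was found. The NRF1 letters were in 15 of the 75 windows (20% against 4.7% of all 27457 windows), those of GABPA in 22 (29.3% against 9.2%), those of the estrogen-related receptors in 11 (14.7% against 4.4%) and those of YY1 in 28 (37.3% against 7.4%). Among the 50 windows of members with positive calls these numbers were 8, 16, 8 and 20, and among the other 25 they were 7, 6, 3 and 8. A match describes the letters of the window and does not show that a factor binds there.

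Neighbouring mitochondrial pathways were counted in the same fit on Adipoq. Of 16 fatty acid oxidation genes 15 passed with a positive slope. Cpt1b had the steepest, 1.36 (limma, adjusted p = 0.000656). Acaa2, the last enzyme of the cycle, had the smallest p, with a slope of 1.02 (adjusted p = 1.91e-05). The exception was Cpt1a, the liver form of the entry enzyme, at -0.227 (adjusted p = 0.0956). The citric acid cycle had 11 of 13, with Sucla2, a succinyl-CoA ligase subunit, at 0.762, and pyruvate entry 6 of 7, with the kinase Pdk4 at 1.11. Of genes that build mitochondria, 11 of 68 mitochondrial ribosomal proteins passed with a positive slope and 1 with a negative one, 4 of 23 assembly factors outside the rule, and 4 of 14 genes of the outer membrane and protein import. Among 16 regulators 4 passed, the fatty acid receptor Ppara (0.987), the estrogen-related receptor Esrra (0.302), the coactivator Ppargc1b (0.435) and the mitochondrial RNA polymerase Polrmt (0.120), while Tfam, the packaging factor of mitochondrial DNA, had 0.016. Of 78 genes named for cytosolic ribosomal proteins none passed with a positive slope and 2, Rpl36al and Rps25, with a negative one. All 12 white adipocyte markers other than Adipoq and 6 of 9 brown adipocyte markers passed with a positive slope, and 2 of 8 smooth muscle markers, Cnn1 and Tagln, with a negative one. Ppargc1a, also on the brown adipocyte list, had 0.327 and did not pass (adjusted p = 0.205). Endothelial markers also had slopes above 0 in 7 of 7, with a median of 0.215, and 2 of them passed: the growth factor receptor Kdr (0.621, adjusted p = 2e-04) and the surface protein Emcn (0.395, adjusted p = 0.0101). The part of endothelial transcripts in the members' slopes was not tested.

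NX-vehicle against sham compares uremic with sham aorta, with vehicle injection as a further difference. The members' median change was -0.25 (log2), against -0.04 over all features, and 5 of 89 were above sham, against 43.6% of all features. None passed (limma, 0% of all features passed), and 6 members were lower at an unadjusted p under 0.05 (4.59% of all features). Ndufa3, an accessory subunit of complex I, had the smallest p, at -0.54 ± 0.18 (SE, adjusted p = 0.475). Cox7c and Cox8a, small subunits of complex IV, followed at -0.36 and -0.44 (adjusted p = 0.523 and 0.524). The mean of 13 white adipocyte markers was 4.76 ± 0.63 in sham and 4.11 ± 1.71 in NX-vehicle (SD, n = 3). By array it was 4.14, 5.41 and 4.73 in sham and 6.07, 2.95 and 3.31 in NX-vehicle, so the groups overlapped. Macrophage transcripts were higher in NX-vehicle. The mean of 8 macrophage markers was 1.98 ± 0.27 in sham and 2.77 ± 0.33 in NX-vehicle, with no overlap of the groups. All 8 macrophage markers were above sham, and none passed. With Adipoq as a covariate the members' median change was -0.11 and 23 of 89 were above sham, and with Ucp1 the median was -0.01 and 43 were above. The part of macrophage transcripts was not tested. Without the 3 arrays that carried intestinal or skeletal muscle transcripts, the median change was 0.24, with NX-vehicle array 1 as the only vehicle array left. Without NX-vehicle array 1 it was -0.52, with arrays 2 and 3, which carried intestinal transcripts, as the vehicle arrays left.

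Each compound was compared with NX-vehicle. With paricalcitol 88 of 89 members were above NX-vehicle (72.4% of all features), with a median of 0.26 against 0.15 over all features, and none passed (limma, 0% of all features, with 8 members and 11.8% of all features higher at an unadjusted p under 0.05). With alfacalcidol 88 were above (77.1% of all features), with a median of 0.31 against 0.20, and none passed (0.0445% of all features, with 15 members and 13.3% of all features higher at an unadjusted p under 0.05). When each array's median was subtracted these medians were 0.12 and 0.15. With Adipoq as a covariate they were 0.23 and 0.28, against 0.155 and 0.205 over all features. With Ucp1 as a covariate they were 0.18 and 0.14, against 0.16 and 0.22 over all features. With alfacalcidol the macrophage mean was 1.98 ± 0.06, all 8 macrophage and all 7 endothelial markers were below NX-vehicle, and none passed; their part in the members' change was not tested. The smallest p-values with paricalcitol were those of Ndufa1 (0.29, adjusted p = 0.263), Cox7c (0.40, adjusted p = 0.271) and Atp5g2 (0.30, adjusted p = 0.274), and with alfacalcidol those of Atp5g2 (0.40, adjusted p = 0.155), Cox7c (0.45, adjusted p = 0.194) and Sdhc (0.43, adjusted p = 0.21). Without the 3 arrays named above the medians were -0.21 and -0.14, against NX-vehicle array 1 alone.

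VS-105 against NX-vehicle had a median change of 0.56 over the members and 0.07 over all features, with 86 of 89 members above NX-vehicle (58.3% of all features). At an adjusted p under 0.05, 2 members were higher and none lower, which is close to the 2.4% of all features called higher. At an unadjusted p under 0.05, 60 members were higher, against 13.8% of all features. In 18 members all 3 VS-105 arrays lay above all 3 NX-vehicle arrays, against 12.8% of all features, so most members overlapped. The core subunits of complex I had a median of 0.93 and complex III one of 0.68. Of the accessory subunits of complex I, 25 of 31 were higher at an unadjusted p under 0.05.

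Cox7c read 5.69, 5.98 and 6.06 with VS-105 and 5.61, 5.23 and 5.18 in NX-vehicle. The groups did not overlap, and the change was 0.57 ± 0.14 (SE; limma, adjusted p = 0.0375). Ndufa3 read 6.92, 7.01 and 7.28 with VS-105 and 6.65, 6.17 and 6.25 in NX-vehicle, again without overlap, with a change of 0.71 ± 0.18 (adjusted p = 0.0456). Both were also lower in NX-vehicle than in sham in these values, and neither passed there. Neither passed against NX-vehicle when each array's median was subtracted (adjusted p = 0.088 and 0.107). Without NX-vehicle array 3 the adjusted p-values were 0.175 and 0.184. Without NX-vehicle array 1, by contrast, 55 members were called higher, while 5.9% of all features were, and the median was 0.79 over the members and 0.00 over all features. The vehicle arrays left in that fit were arrays 2 and 3, which carried intestinal transcripts (marker means 0.46 and 3.31). Without the 3 arrays with other tissues NX-vehicle array 1 was the only vehicle array left. The median was then 0.20 over the members and 0.15 over all features.

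Adipocyte transcripts were higher on average with VS-105, and the groups overlapped. The mean of 13 white adipocyte markers was 5.62, 4.91 and 6.00 with VS-105 and 6.07, 2.95 and 3.31 in NX-vehicle. All 13 were above NX-vehicle, with a median change of 1.40, and none passed. With Adipoq as a covariate the members' median change was 0.28 in place of 0.56, and the median standard error 0.158 in place of 0.23. In that fit 2 members were called higher, a smaller share than the 4.63% of all features. They were Atp5g2 (0.38, limma adjusted p = 0.0415) and Atp5g3 (0.62, adjusted p = 0.0339), both for subunit c. Both had slopes on Adipoq below 0, and Adipoq averaged 7.30 with VS-105 and 5.91 in NX-vehicle. The covariate therefore raises their change in this comparison, and these calls are not independent of those slopes. In the same fit Atp5g2 was also higher with alfacalcidol than in NX-vehicle (0.41, adjusted p = 0.0463), where 1.06% of all features were called higher.

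**Figure D5:**
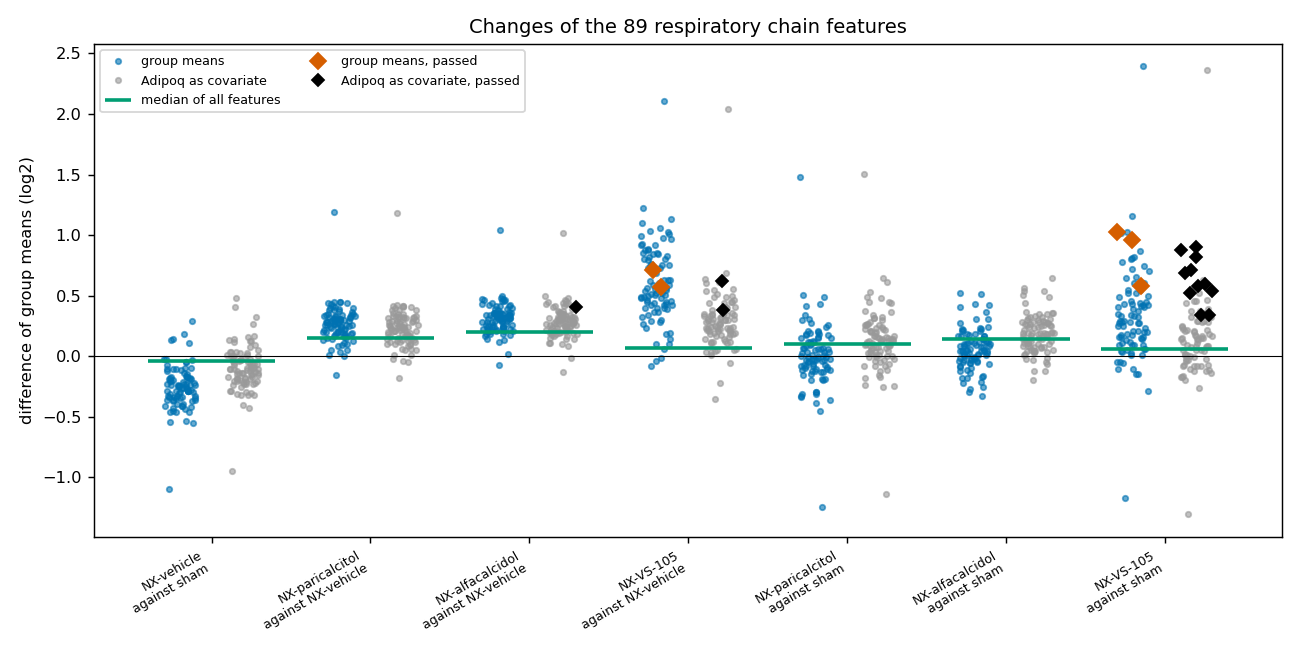
Difference of group means (log2) of each of the 89 features in the 7 comparisons, from the fit of group means and from the fit with Adipoq as a covariate; diamonds passed at an adjusted p under 0.05, and green lines are the medians of all features. The VS-105 changes against NX-vehicle centre on 0.56, and on 0.28 with the covariate.

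Against sham the paricalcitol and alfacalcidol groups had median changes of 0.00 and 0.05 over the members, against 0.10 and 0.14 over all features, and no member passed (limma, where 6.98% and 1.75% of all features passed, with 2 and 3 members higher at an unadjusted p under 0.05, as were 21.7% and 20.6% of all features). The smallest p in both belonged to Atp5sl, at 0.51 (adjusted p = 0.0853) and 0.52 (adjusted p = 0.0981). Next with paricalcitol were Cox4nb at 0.31 (adjusted p = 0.116) and Ndufb10 at -0.36 (adjusted p = 0.245), and with alfacalcidol Cox7a2l at 0.31 (adjusted p = 0.162) and Ndufa7 at 0.43 (adjusted p = 0.187).

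VS-105 against sham had a median of 0.29 over the members and 0.06 over all features, with 80 of 89 above sham (55.1% of all features). 3 members were called higher and none lower, a smaller share than the 7.88% of all features called higher. Atp5c1, the central shaft of the ATP synthase, read 5.98, 6.30 and 6.85 with VS-105 and 5.18, 5.42 and 5.46 in sham, a change of 1.02 ± 0.28 (SE; limma, adjusted p = 0.0313). Ndufs8, an iron-sulfur core subunit of complex I, read 4.54, 5.06 and 5.68 with VS-105 and 3.90, 4.35 and 4.15 in sham, a change of 0.96 ± 0.30 (adjusted p = 0.0461). Atp5sl, no subunit, was 0.58 higher (adjusted p = 0.0444). In these 3 the groups did not overlap. Each lost its call when NX-VS-105 array 3 was left out (adjusted p = 0.118, 0.166 and 0.145). No member was called either without NX-VS-105 array 2, without sham array 1 or with only the groups compared in the fit. None of the 3 had a slope on Adipoq that passed. With Adipoq as a covariate the members' median change was 0.17 in place of 0.29, with 66 members above sham, and the median standard error was 0.145 in place of 0.23. In that fit 11 members were called higher, while 17.4% of all features were. They included Atp5b (0.90, adjusted p = 0.0257), Atp5c1 (0.87, adjusted p = 0.0199) and Uqcrfs1 (0.69, adjusted p = 0.0369). Macrophage markers moved with this comparison too: all 8 were above sham with VS-105, and 2 passed, as 2 did with paricalcitol; their part in the members' change was not tested. The moderated F test over the 5 groups called 0 of 89 members (limma), against 6.16% of all features, and 11 members were under an unadjusted p of 0.05, against 31% of all features.

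Isoforms of restricted tissue expression were read apart. Cox6a2, the heart and skeletal muscle isoform of a complex IV subunit, was 4.06 on NX-VS-105 array 1 and between -2.83 and 0.17 on the others. That array also held the skeletal muscle transcripts Mylpf, at 5.01 against -2.73 to -0.75 elsewhere, and Ckm, at 4.56, where sham array 3 had 3.8. With VS-105 Cox6a2 read 4.06, -0.65 and -0.59, against -1.69, -0.51 and -1.30 in NX-vehicle, a change of 2.11 (adjusted p = 0.232) that 1 array sets. Cox4i2, the isoform of lung and vascular smooth muscle that responds to low oxygen, had a slope of 0.191 on Adipoq (limma, adjusted p = 0.0212), like its relative Cox4i1. Cox6b2, known from testis, lay between 6.52 and 7.51 and had a slope of 0.164 (adjusted p = 0.118). Near copies moved together: r over 15 arrays was 0.991 between Atp5h and the pseudogene Atp5hl1, 0.980 between Cox6c and Cox6c1 and 0.977 between Ndufb4 and Ndufb4l1. The median member had r of 0.932 with the mean of the others. The largest differences on an array in these pairs were 0.15, 4.76 and 1.06 (log2). Their values may share signal, which was not tested.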

How the data were processed

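RNA of 15 aorta pools was labelled with Cy3 for one-colour Agilent arrays, per the labels' protocols. The authors deposited log2 signals of 15739 features. Partek 6.0 is named, per the submitters' processing notes, and how background and scaling were treated is not given in the sources used here. Signed fold changes that the authors deposited, a score in these files, served only to check the log2 scale: 356 values were met within 8.7e-06. Array medians lay between 2.33 and 2.64, and precision is limited by how few arrays there are.

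The 5 groups were modelled together in limma 3.58.1 (lmFit, eBayes; R 4.3.3), with 7 comparisons, a moderated F test and a slope on Adipoq. Tests were two-sided, with p-values adjusted by Benjamini-Hochberg over all features and a threshold of 0.05. They measure the spread between pools of 2 rats. The fits were tested on simulated data. Changes and slopes are on the log2 scale, with the fit's standard error.

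The members and lists were chosen with earlier results of these data known. Per comparison the text names members that passed with groups apart, up to 4 per complex, or else the 3 with the smallest p. For the slope it names the 5 smallest and 3 largest p. Beside these it names a fixed set of core subunits and isoforms. Other genes were named after their values were seen. Array numbers in the labels were shared by groups: same-numbered NX-paricalcitol and NX-vehicle arrays deviated together (r = 0.622, 0.516 and 0.264), and in the other comparisons they did not all do so. Alternatives were other scalings, a floor, a filter on dim features, no moderation, array weights, fewer groups, the replicate block, covariates, a stricter threshold and arrays left out.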

Additional observations from a re-analysis of the deposited data

How the results depend on the processing

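Depth is not defined for arrays, and the number of arrays and the weight of single pools set the limits. Counts are members that passed, in either direction. Most are given without the share of all features that passed in the same fit. Such counts do not separate the members from a shift of all features. Scaling by array medians or quantiles left 0 of the 2 calls of VS-105 against NX-vehicle and 1 of the 3 against sham. Leaving out dim features gave 5 calls against NX-vehicle. Without moderation both counts were 1, and with only the groups compared both were 0. With the replicate number as a block, they were 0 and 1, and the slope of Atp5g3 lost its call (adjusted p = 0.0568). The block moved no other count by over 1.5 times, nor did pairing NX-paricalcitol with NX-vehicle alone, an alternative chosen after seeing the data. With a stricter threshold (unadjusted p under 0.01 and 2-fold) 1 member was called against sham. Array weights gave 23, 69, 84, 81, 1 and 2 calls for NX-vehicle against sham, paricalcitol, alfacalcidol and VS-105 against NX-vehicle, and paricalcitol and alfacalcidol against sham, and 87 in the F test; the weights did not converge, and 1 array, NX-vehicle array 3, had a weight of 18.2 against at most 3.21 elsewhere. With Adipoq as a covariate alfacalcidol against NX-vehicle had 1 call, where 1.06% of all features were called higher. VS-105 against sham had 11 (17.4% of all features), and the F test had 2. With Ucp1 these counts were 6, 17 and 2. Without NX-vehicle array 3 and NX-VS-105 array 1, and without NX-vehicle array 2 as well, VS-105 against NX-vehicle had 0 calls, and without all 3 arrays VS-105 against sham had 5 and the slope on Adipoq 16 of its 63. Leaving out each array in turn gave 0 to 55 calls for VS-105 against NX-vehicle, 0 to 9 for VS-105 against sham, 0 to 1 in the F test and 14 to 69 for the slope. The most calls of the first 3 and the fewest for the slope came without NX-vehicle array 1. In the other comparisons each of these fits left 0 calls. With Myh11 in place of Adipoq 0 slopes were called and 87 of 89 signs turned, among them those of Sdhb -1.54, Atp5s -1.48, Cycs -1.70, Uqcrc1 -1.65, Ndufv3 -0.986, Atp5g1 0.79 and Atp5g3 0.51. The cause of these moves was not tested.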
